A study of Mus musculus with 10 samples.

Results

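The genes described here are 38 markers of cranial sensory neuron differentiation, chosen by symbol from a list, out of 22114 protein-coding genes counted in the first pharyngeal arch (PA1) of the mouse. PA1 was dissected from male C57BL/6 embryos at E10.5 (mid-gestation), 5 of them wild-type and 5 *Grhl2*-/-, and each PA1 gave 1 stranded total RNA library depleted of ribosomal RNA. The *Grhl2*-/- embryos carried 2 null alleles in all their cells and came from intercrosses of heterozygotes. GRHL2 is a transcription factor of epithelial cells. The wild-type arches are called WT1-566, WT5-566, WT1-568, WT8-568 and WT3-588 after their titles, and the *Grhl2*-/- arches KO2-566, KO2-568, KO1-588, KO3-604 and KO1-628. Values per arch are listed in this order. The comparison asks whether transcripts of sensory neurons differed between the genotypes, and how far they varied between arches of 1 genotype, since a dissected PA1 may hold more or less of the nearby ganglion.

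PA1 forms the upper and lower jaw and is innervated by the trigeminal nerve, whose ganglion lies at its proximal end. Neurons of the cranial sensory ganglia come from ectodermal placodes and from neural crest cells. Transcription factors and coactivators of the placodes act first, neurogenins commit progenitors to a neuronal fate, NEUROD and NHLH factors follow them, and POU4F1 and ISL1 then specify sensory identity. Axon growth brings the cytoskeletal, adhesion and vesicle proteins that make up the rest of the genes, and neurotrophin receptors sustain the neurons once their axons reach the arch.

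Neurogenin and NEUROD proteins are basic helix-loop-helix (bHLH) factors, which bind short motifs known as E-boxes. The letters CAGATG and CAGCTG were searched on both strands of the 250 bases before the start site in RefSeq promoters (GRCm38.p6), where 28 of the 38 members were matched. CAGATG was found for 7 members, *Nhlh1*, *Nhlh2*, *Ntrk2*, *Elavl4*, *Stmn3*, *L1cam* and *Rtn1*, and for 16.3% of the 27025 genes with a promoter. CAGCTG reads the same on both strands and was found for 6 members, *Pou4f1*, *Isl1*, *Elavl3*, *Elavl4*, *Ina* and *Chga*, and for 14.7% of genes. The motifs were searched separately in each promoter of a gene, and a match is a description of the letters only. The promoters of *Nhlh1* (chr1:172057597-172057846, minus strand), *Nhlh2* (chr3:102009895-102010144, plus strand) and *Stmn3* (chr2:181314501-181314750, minus strand) are printed because they hold CAGATG and these genes moved together from arch to arch. That of *Phox2a* (chr7:101818063-101818312, plus strand) is printed because it is the member that passed the test between genotypes. Capitals mark CAGATG or its reverse complement, and the *Phox2a* window holds neither motif.
Nhlh1: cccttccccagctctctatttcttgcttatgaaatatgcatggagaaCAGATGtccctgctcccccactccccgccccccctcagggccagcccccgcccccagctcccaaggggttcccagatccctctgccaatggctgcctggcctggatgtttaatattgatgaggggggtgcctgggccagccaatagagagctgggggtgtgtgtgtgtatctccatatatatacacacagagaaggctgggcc
Nhlh2: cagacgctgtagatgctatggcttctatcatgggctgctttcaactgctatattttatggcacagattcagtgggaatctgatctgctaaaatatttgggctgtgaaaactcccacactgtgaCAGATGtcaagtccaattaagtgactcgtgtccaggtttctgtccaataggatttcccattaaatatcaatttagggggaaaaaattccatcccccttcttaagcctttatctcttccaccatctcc
Stmn3: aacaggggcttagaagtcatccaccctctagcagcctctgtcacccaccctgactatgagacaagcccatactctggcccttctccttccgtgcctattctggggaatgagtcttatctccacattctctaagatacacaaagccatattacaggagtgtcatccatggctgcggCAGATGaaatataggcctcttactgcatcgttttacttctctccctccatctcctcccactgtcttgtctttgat
Phox2a: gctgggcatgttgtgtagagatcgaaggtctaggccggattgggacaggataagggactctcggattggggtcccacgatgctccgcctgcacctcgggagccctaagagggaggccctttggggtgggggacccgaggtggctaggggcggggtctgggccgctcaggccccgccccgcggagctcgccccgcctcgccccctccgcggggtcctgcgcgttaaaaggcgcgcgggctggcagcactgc

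Between 22188454 and 28801378 reads per arch were counted on genes, and 3 reads, the floor used here for detection, correspond to 0.104 to 0.136 CPM (counts scaled to library size after TMM, a trimmed-mean scaling between libraries). The 38 members took between 9152 and 68976 of these reads. *Grhl2* itself had 794 to 1163 counts in wild-type PA1 and 81 to 178 in *Grhl2*-/- PA1 (log2 fold change -3.02, limma-voom FDR 2.67e-06). Transcripts of 14 arch mesenchyme genes summed to between 1690 and 2140 CPM in wild-type PA1, whereas the 4 tested of 6 *Hox* genes of the second and more posterior arches summed to 0.836 to 2.0 CPM. From low counts, the *Hox* sums were 2.0 CPM in WT1-566 and 1.91 CPM in WT1-568, against 0.836 to 1.05 CPM in WT5-566, WT8-568 and WT3-588. Of the 38 members, 37 reached 10 counts in an arch and were tested among 14561 genes. *Phox2a* and *Neurog2* reached 10 counts in *Grhl2*-/- arches only, so they entered the test through the group where they are high. *Pou4f2*, a POU factor of retinal and sensory neurons, had 9 counts at most and was not tested.

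WT1-566 and WT1-568 stood apart from all other arches in these genes. The tested members summed to 415.6 CPM in WT1-566 and 389.3 CPM in WT1-568, against 1895 in WT5-566, 1309 in WT8-568 and 1196 in WT3-588. Most of the sum in WT1-566 and WT1-568 came from *Six4* (227 and 215 CPM) and *Gap43* (75.4 and 67.6 CPM), which varied little between arches. In the *Grhl2*-/- arches the sums were 2387 CPM in KO2-566, 915.5 in KO2-568, 801.2 in KO1-588, 1769 in KO3-604 and 1888 in KO1-628. Every *Grhl2*-/- arch was therefore above these 2 wild-type arches, while the other 3 wild-type arches lay within the range of the *Grhl2*-/- arches. Whether such an arch held fewer sensory neurons or less RNA of these genes per neuron cannot be told apart in whole tissue. WT1-566 had the fewest total counts, 22188454, but WT1-568 had 28379443, more than 7 of the other arches. Log2 fold changes use all 10 arches unless stated, and most are also given without WT1-566 and WT1-568, a choice made after their values were seen.

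The members varied together from arch to arch. On the log2 CPM scale, the SD within genotypes had a median of 1.73 over the tested members and 0.129 over all tested genes, and 29 of the 37 members were above the 95th percentile of all genes, an SD of 0.83. Relative to the mean of its own genotype, the median member deviated by -2.41 in WT1-566 and -2.54 in WT1-568, by 2.2 in WT5-566, 1.62 in WT8-568 and 1.32 in WT3-588. The *Grhl2*-/- arches differed less, with median deviations of 0.83 in KO2-566, 0.53 in KO1-628, 0.38 in KO3-604, -0.68 in KO2-568 and -1.06 in KO1-588.

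The order of the arches was nearly the same in each member. WT5-566 was the highest wild-type arch in 33 members, and KO2-566 the highest *Grhl2*-/- arch in 31. WT1-566 and WT1-568 were both below the other 3 wild-type arches in 34 members, an order that 12.7% of all tested genes had. KO2-568 and KO1-588 were both below the other 3 *Grhl2*-/- arches in 35 members, and 14.9% of tested genes had that order. Both orders held in 33 members and in 5.4% of tested genes. These orders were chosen after the values were seen and are given without a test.

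**Figure D1:**
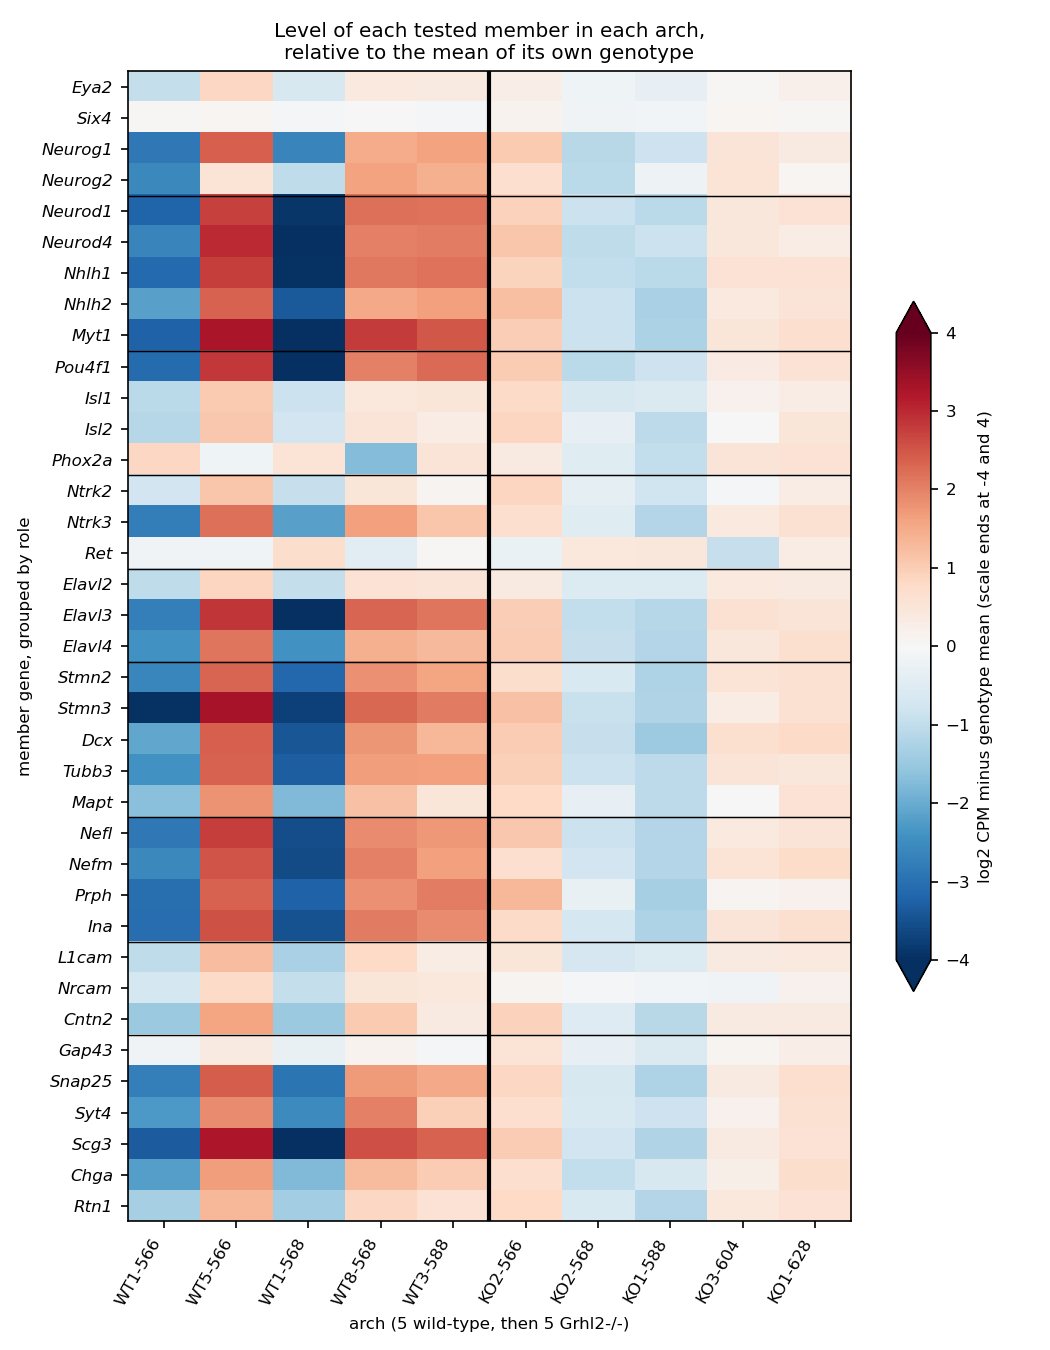
Heat map of the 37 tested members (rows, grouped by role, lines between groups) in the 10 arches (columns), coloured by log2 CPM minus the mean of the same genotype, with the scale ending at -4 and 4. Blue columns at WT1-566 and WT1-568 run through nearly all rows, except in *Six4*, *Ret* and *Gap43*, which stay pale, and in *Phox2a*, which rests on 0 to 2 counts per wild-type arch.

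Over the 10 arches, the deviations of 32 members correlated with the mean deviation of the other members at r above 0.9, with a median r of 0.985. Of the 14524 other tested genes, 2.58% reached r above 0.9 with the members' mean. All these genes share the same libraries, so r is a description only. The 5 members below 0.9 were *Ret* (-0.527), *Phox2a* (-0.298), *Six4* (0.323), *Gap43* (0.676) and *Neurog2* (0.853). The other 32 varied as 1 group, also with ganglion glia and other sensory neuron genes. Within the *Grhl2*-/- arches alone *Six4* (0.963), *Phox2a* (0.935) and *Gap43* (0.989) did follow the others, while *Ret* (-0.616), *Nrcam* (0.596) and *Neurog2* (0.771) did not. Without WT1-566 and WT1-568, 31 of 37 members were above 0.9 over 8 arches, with a median r of 0.966.

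Against this spread, 1 of the 37 members passed the test between genotypes, and it had met the filter through *Grhl2*-/- arches only. With limma-voom over all 10 arches, 36 members had a positive and 1 a negative log2 fold change (*Grhl2*-/- over wild-type), with a median of 1.69 against 0.01 for all tested genes. At FDR below 0.01, 1 member was higher, *Phox2a*, and 0 were lower, while 0.879% of tested genes were called higher and 1.09% lower. At an unadjusted p below 0.05, 10 members were higher and 1, *Six4*, was lower, while 14.2% of tested genes were higher and 14.3% lower at that p, and for 35 members the FDR was above 0.05. *Phox2a* was also the member in which all 5 *Grhl2*-/- arches lay above all 5 wild-type arches, and in 0 members did they lie below. Of all tested genes, 4.22% were separated upwards and 4.66% downwards.

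The size of the difference depended on how arches were averaged. The ratio of mean CPM, *Grhl2*-/- over wild-type, had a median of 1.77 over 36 members and lay between 1.3 and 2.3 in 29 of them, whereas the median log2 fold change of 1.69 from limma-voom averages arches on the log scale, where the 2 low arches weigh more. The edgeR quasi-likelihood test and DESeq2, which model the mean count, both gave a median log2 fold change of 0.82. The limma-voom median was 0.97 without WT1-568 alone and 1.26 without WT1-566 alone. EdgeR called *Phox2a* alone (FDR 0.00429), with 0.975% of tested genes called higher and 1.11% lower. DESeq2 called *Phox2a* (adjusted p = 0.000182) and *Neurog2* (adjusted p = 0.00603), the 2 members that met the filter through *Grhl2*-/- arches only, with 3.57% of tested genes called higher and 3.8% lower. Neither called a member lower. At an unadjusted p below 0.05, edgeR had 6 members higher and 1 lower, against 14.5% and 14.4% of tested genes, and DESeq2 had 5 higher and 1 lower, against 13.6% and 15.0%.

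**Figure D2:**
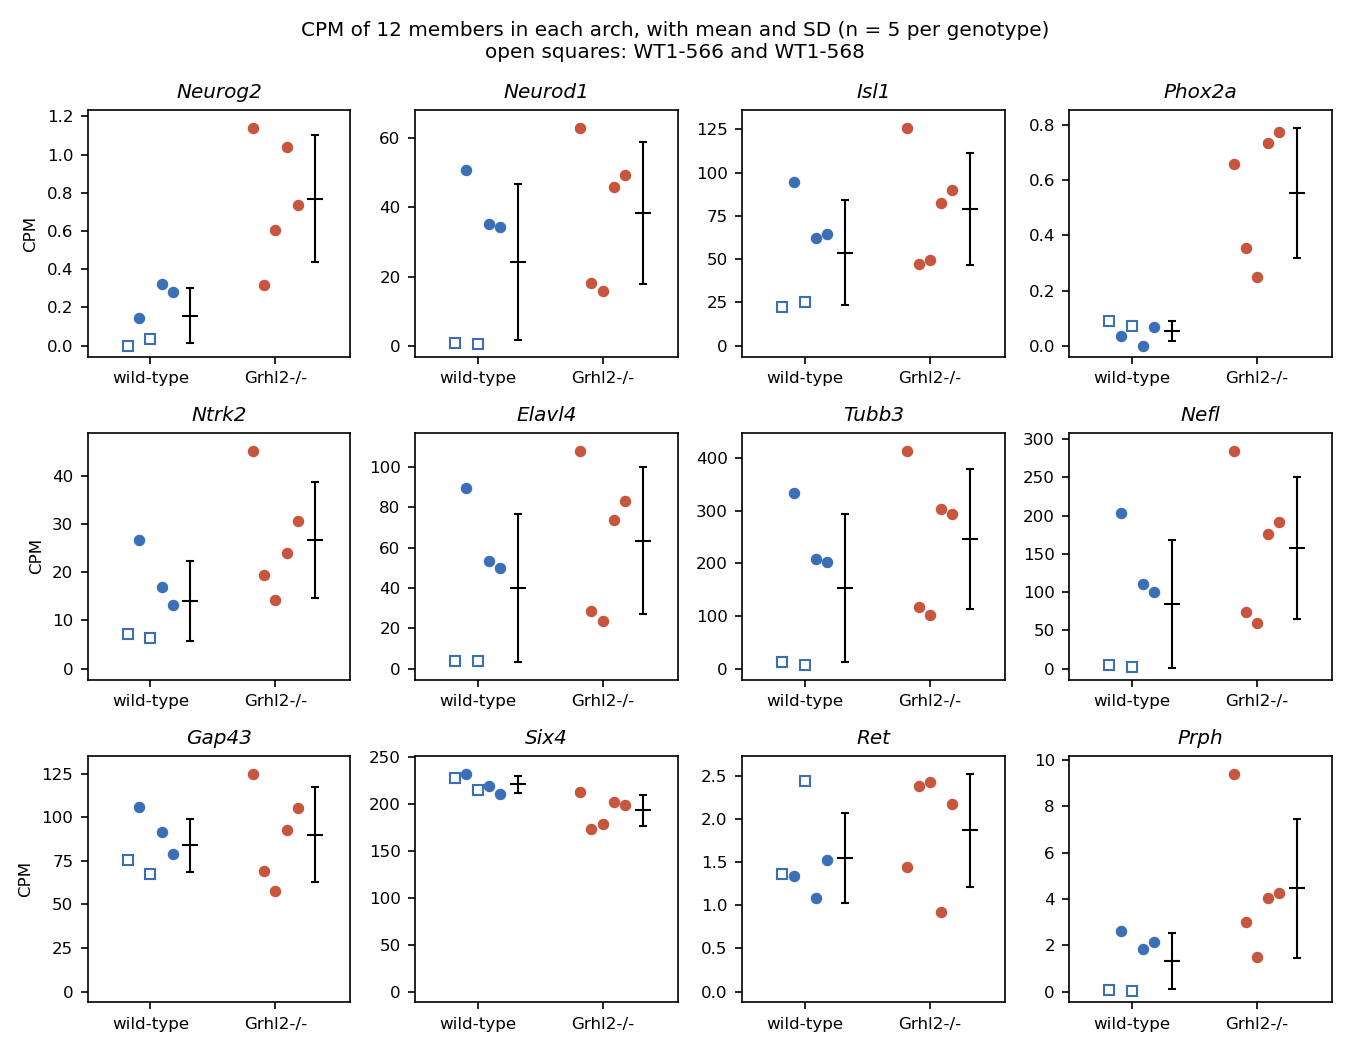
CPM (vertical axis) of 12 members in the 5 wild-type (blue) and 5 *Grhl2*-/- arches (red), one point per arch, with the mean and SD beside each group and WT1-566 and WT1-568 as open squares. *Tubb3* and *Nefl* spread over most of the axis in both genotypes, *Six4* stays between 173 and 232 CPM, and *Phox2a* and *Neurog2* are near 0 in wild-type PA1.

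Placodal and proneural factors had log2 fold changes between -0.20 and 2.60, the widest range of the 9 roles. *Six4*, a homeobox gene of placodes that is also active in arch mesenchyme (chr12:73099609-73113456, minus strand), was at 227, 232, 215, 219 and 210 CPM in wild-type and 212, 173, 178, 202 and 199 CPM in *Grhl2*-/- PA1. The lowest wild-type arch and the highest *Grhl2*-/- arch overlapped by a small margin, and WT1-566 and WT1-568 were not low. *Six4* had a log2 fold change of -0.20 (95% confidence interval -0.32 to -0.07, limma-voom FDR 0.0566), the single negative value among the members.

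*Eya2*, which encodes a transcriptional coactivator of placodal cells (chr2:165595032-165771727), was at 15.0, 51.3, 18.6, 38.5 and 37.7 CPM in wild-type and 67.3, 50.6, 44.9, 58.3 and 64.8 CPM in *Grhl2*-/- PA1. All 5 *Grhl2*-/- arches were above the wild-type median, but 2 of them were below WT5-566. The log2 fold change was 0.94 (standard error 0.278, limma-voom FDR 0.0609), and 0.41 without WT1-566 and WT1-568 (FDR 0.197). *Neurog1*, the neurogenin of trigeminal precursors, ranged from 0.273 to 11.2 CPM in wild-type and from 3.91 to 17.3 CPM in *Grhl2*-/- PA1 (log2 fold change 1.90, FDR 0.194, and 0.13 without WT1-566 and WT1-568).

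*Neurog2*, the neurogenin used chiefly by epibranchial placodes and neural crest derivatives (chr3:127633135-127635631), was near the floor. It had 0, 4, 1, 8 and 8 counts in wild-type and 33, 9, 17, 27 and 19 counts in *Grhl2*-/- PA1. In CPM the groups overlapped only between WT8-568, at 0.323, and KO2-568, at 0.320. Limma-voom gave a log2 fold change of 2.60 (95% confidence interval 1.13 to 4.07) and an FDR of 0.0398, above the threshold of 0.01. Without WT1-566 and WT1-568 it was 1.49 (FDR 0.189).

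The bHLH and zinc finger differentiation factors, which act downstream of the neurogenins, had the widest spread. None of the 5 passed the test, with log2 fold changes between 1.69 and 2.64 and limma-voom FDR between 0.209 and 0.264. *Neurod1*, a bHLH factor of differentiating sensory neurons (chr2:79452521-79456751), was at 0.818, 50.7, 0.503, 35.2 and 34.3 CPM in wild-type and at 63.0, 18.1, 15.7, 45.8 and 49.2 CPM in *Grhl2*-/- PA1. WT1-566 and WT1-568 were thus more than an order of magnitude below the other 8 arches, and KO2-568 and KO1-588 were below the other 3 wild-type arches. For *Neurod1* the log2 fold change was 2.02 (95% confidence interval -0.38 to 4.43, FDR 0.245) and -0.27 without WT1-566 and WT1-568 (FDR 0.779).

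*Myt1*, a zinc finger factor that promotes neuronal differentiation (chr2:181763332-181827797), had the largest SD of log2 CPM among the members, 2.90. It had 8, 959, 2, 616 and 573 counts in wild-type and 1347, 371, 275, 855 and 979 counts in *Grhl2*-/- PA1. WT1-568 was under the floor, so that the highest wild-type arch was at least 323-fold above the lowest, against 4.75-fold in the *Grhl2*-/- arches. The log2 fold change of *Myt1* was 2.64 (95% confidence interval -0.25 to 5.54, limma-voom FDR 0.211) and -0.14 without WT1-566 and WT1-568. *Neurod4*, *Nhlh1* and *Nhlh2*, all bHLH factors, spanned 195-fold, 119-fold and 54.8-fold over the wild-type arches and 4.45-fold, 3.87-fold and 5.69-fold over the *Grhl2*-/- arches.

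Among the POU and homeodomain factors, *Phox2a* differed from its group. It encodes a homeodomain factor of visceral sensory, autonomic and some motor neurons, and lies at chr7:101818313-101822726. Its exons overlap those of *Inppl1*, which is read from the other strand. *Phox2a* had 2, 1, 2, 0 and 2 counts in the wild-type arches, all under the floor of 3. In *Grhl2*-/- PA1 it had 19, 10, 7, 19 and 20 counts. The mean of 0.554 ± 0.236 CPM (SD, n = 5) in *Grhl2*-/- PA1 was at least 4.08-fold higher than 3 counts in the shallowest wild-type arch, 0.136 CPM. The fitted log2 fold change was 3.05 (limma-voom FDR 0.00926) but depends on the prior count, since the wild-type arches are at the floor. Without WT1-566 and WT1-568 the FDR was 0.0514, and of the 10 fits that each left out 1 arch *Phox2a* passed the threshold only in that without KO1-588 (FDR 0.00415), with FDR of 0.0137 to 0.0242 in the other 9.

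The other members of this group followed the common order of arches. *Isl1*, a LIM homeodomain factor of cranial sensory neurons (chr13:116298281-116309689), was at 22.1, 94.7, 25.3, 62.0 and 64.8 CPM in wild-type and at 126, 47.1, 49.8, 82.7 and 90.1 CPM in *Grhl2*-/- PA1. *Isl1* had a log2 fold change of 0.66 (95% confidence interval -0.23 to 1.54, limma-voom FDR 0.302) and 0.01 without WT1-566 and WT1-568. *Isl2*, its paralogue, spanned 4.64-fold over the wild-type arches, and *Pou4f1*, the POU factor of somatosensory neurons, spanned 119-fold, with log2 fold changes of 0.61 (FDR 0.376) and 2.11 (FDR 0.230). Without WT1-566 and WT1-568 these were 0.00 for *Isl2* and -0.19 for *Pou4f1*.

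None of the 3 growth factor receptors passed the test. *Ntrk2*, which encodes the BDNF receptor TrkB (chr13:58806569-59133970), was at 7.13, 26.7, 6.40, 17.0 and 13.3 CPM in wild-type and at 45.3, 19.5, 14.3, 24.0 and 30.6 CPM in *Grhl2*-/- PA1. All 5 *Grhl2*-/- arches were above the wild-type median, and the groups overlapped. This gave *Ntrk2* a log2 fold change of 0.99 (95% confidence interval 0.11 to 1.87, limma-voom FDR 0.133) and 0.43 without WT1-566 and WT1-568 (FDR 0.557). *Ntrk3*, the receptor of neurotrophin-3, spanned 34.1-fold over the wild-type arches.

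*Ret*, the GDNF family receptor, went against the common order. It was at 1.36, 1.34, 2.44, 1.09 and 1.53 CPM in wild-type and 1.45, 2.38, 2.43, 0.927 and 2.17 CPM in *Grhl2*-/- PA1. WT1-568, KO2-568 and KO1-588, which were low in nearly all members, held the 3 highest *Ret* levels. The genotypes overlapped (log2 fold change 0.22, limma-voom FDR 0.654, and 0.40 without WT1-566 and WT1-568).

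The 3 neuronal RNA-binding proteins of the ELAV family, which stabilize neuronal mRNAs, had log2 fold changes between 0.73 and 2.10 and limma-voom FDR between 0.219 and 0.313. *Elavl4*, or HuD, an early marker of postmitotic neurons (chr4:110203722-110351909, minus strand), was at 3.72, 89.6, 3.70, 53.5 and 49.7 CPM in wild-type and 108, 28.6, 23.8, 73.7 and 83.2 CPM in *Grhl2*-/- PA1. For *Elavl4* the log2 fold change was 1.35 (95% confidence interval -0.51 to 3.22, FDR 0.313), and -0.22 without WT1-566 and WT1-568 (FDR 0.842). *Elavl3* spanned 190-fold over the wild-type arches and *Elavl2* 3.69-fold. *Elavl2* was at 10.3 and 10.6 CPM in WT1-566 and WT1-568, and its next lowest wild-type level was 29.6 CPM in WT3-588.

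The 5 microtubule proteins of neurons had log2 fold changes between 1.68 and 2.42, and none passed the test. *Tubb3*, the neuronal beta-tubulin (chr8:123411424-123422015), averaged 107 CPM per kb of exon over all arches, the highest of the members, followed by *Gap43* at 57.0 and *Nefl* at 35.7 CPM per kb. *Tubb3* was at 12.2, 334, 6.61, 209 and 203 CPM in wild-type and 414, 117, 102, 303 and 293 CPM in *Grhl2*-/- PA1. The means were 153 ± 141 and 246 ± 133 CPM (SD, n = 5 each), so that each SD exceeded the difference. Limma-voom gave *Tubb3* a log2 fold change of 1.69 (95% confidence interval -0.48 to 3.85, FDR 0.279), and -0.20 without WT1-566 and WT1-568, from -1.17 to 0.77 (FDR 0.848).

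*Stmn3*, a stathmin that regulates microtubule turnover (chr2:181306459-181314500, minus strand), had 2, 452, 3, 206 and 203 counts in wild-type and 640, 149, 118, 314 and 384 counts in *Grhl2*-/- PA1. Its log2 fold change was 2.42 (95% confidence interval -0.20 to 5.05, limma-voom FDR 0.206) and -0.04 without WT1-566 and WT1-568. *Stmn2* and *Dcx*, both microtubule regulators of growing neurons, spanned 44.3-fold and 57.0-fold over the wild-type arches. *Mapt*, which encodes tau, spanned 11.9-fold, with all 5 *Grhl2*-/- arches above the wild-type median (log2 fold change 1.69, FDR 0.112, and 0.58 without WT1-566 and WT1-568).

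The 4 neuronal intermediate filaments had log2 fold changes between 2.06 and 2.79, with limma-voom FDR between 0.110 and 0.215. *Nefl*, the light neurofilament (chr14:68083863-68089095), was at 4.09, 203, 2.55, 111 and 99.8 CPM in wild-type and at 285, 74.3, 59.8, 176 and 192 CPM in *Grhl2*-/- PA1. Its log2 fold change was 2.10 (95% confidence interval -0.22 to 4.42, FDR 0.215) and 0.01 without WT1-566 and WT1-568. *Nefl* and *Nefm*, the medium neurofilament, overlap with exons on opposite strands. *Prph*, which encodes peripherin of peripheral neurons, had 1, 72, 1, 45 and 61 counts in wild-type and 272, 85, 42, 105 and 110 counts in *Grhl2*-/- PA1 (log2 fold change 2.79, FDR 0.110). KO1-588 was below all wild-type arches except WT1-566 and WT1-568, without which the log2 fold change of *Prph* was 0.77 (FDR 0.475).

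The 3 axonal adhesion molecules of the immunoglobulin superfamily varied less, by 3.25-fold to 8.39-fold over the wild-type arches. *Nrcam* (chr12:44328885-44601964) was at 2.41, 6.65, 2.05, 5.49 and 5.26 CPM in wild-type and 7.37, 6.58, 6.31, 6.10 and 7.67 CPM in *Grhl2*-/- PA1. In the *Grhl2*-/- arches its levels differed by only 1.26-fold, and 2 of these arches exceeded WT5-566, the highest wild-type arch. Its log2 fold change was 0.76 (95% confidence interval 0.16 to 1.36, limma-voom FDR 0.101) and 0.22 without WT1-566 and WT1-568 (FDR 0.375). *Cntn2*, or TAG-1, a marker of early axons (chr1:132509427-132543256, minus strand), was at 5.09, 42.7, 5.10, 29.6 and 18.5 CPM in wild-type and at 60.7, 22.5, 15.1, 41.1 and 41.9 CPM in *Grhl2*-/- PA1. The 2 groups overlapped (log2 fold change 1.13, 95% confidence interval -0.15 to 2.42, FDR 0.224). *L1cam* had a log2 fold change of 1.04 (FDR 0.155). Without WT1-566 and WT1-568 the values were 0.17 for *Cntn2* and 0.28 for *L1cam*.

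Growth cone, vesicle and secretory proteins ranged from *Gap43*, which varied little, to *Scg3*, which varied at least 137-fold over the wild-type arches. *Gap43*, a growth cone protein (chr16:42248442-42340651, minus strand), was at 75.4, 106, 67.6, 91.2 and 78.8 CPM in wild-type and at 125, 68.9, 57.4, 92.6 and 105 CPM in *Grhl2*-/- PA1. It was thus well above the floor in WT1-566 and WT1-568, spanned 1.57-fold over the wild-type arches, and had a log2 fold change of 0.06 (95% confidence interval -0.37 to 0.49, limma-voom FDR 0.867) and -0.09 without these 2 arches. *Scg3*, a secretogranin of dense-core vesicles (chr9:75643189-75684056, minus strand), had 3, 406, 1, 231 and 228 counts in wild-type and 535, 149, 111, 303 and 351 counts in *Grhl2*-/- PA1. The log2 fold change of *Scg3* was 2.45 (95% confidence interval -0.29 to 5.20, FDR 0.219) and -0.20 without WT1-566 and WT1-568.

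*Syt4*, a synaptotagmin of vesicles, was low in abundance, with 1, 32, 1, 31 and 17 counts in wild-type and 69, 27, 23, 43 and 59 counts in *Grhl2*-/- PA1. The groups overlapped, and its log2 fold change was 2.19 (95% confidence interval 0.46 to 3.91, limma-voom FDR 0.103). Without WT1-566 and WT1-568 that of *Syt4* was 0.62, from -0.36 to 1.61 (FDR 0.481). *Snap25*, *Chga* and *Rtn1*, proteins of vesicle fusion, secretory granules and the endoplasmic reticulum, spanned 42.4-fold, 15.8-fold and 6.62-fold over the wild-type arches, with FDR of 0.189, 0.223 and 0.372.

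The wild-type arches spanned a wider range than the *Grhl2*-/- arches in 32 of the 36 members with a ratio in wild-type PA1. In 3 they spanned a narrower one, *Six4* (1.1-fold against 1.22-fold), *Gap43* (1.57-fold against 2.18-fold) and *Ret* (2.24-fold against 2.62-fold), and *Neurog2* had a lower bound of 2.38-fold against 3.57-fold. The ratio of the highest to the lowest wild-type arch was above 10 in 23 members and had a median of 29.1, between 1.1 for *Six4* and 323 for *Myt1*. For 7 members, *Phox2a* among them, the lowest wild-type arch was under 3 counts, so that the ratio of the other 6 is a lower bound. In the *Grhl2*-/- arches the ratio was above 10 in 0 members and had a median of 3.85, between 1.22 and 6.28. These ratios were not tested, and in wild-type PA1 they turn on WT1-566 and WT1-568.

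Each arch has a number in its title, which arches of both genotypes can share and whose meaning the labels do not give. Within number 566, KO2-566 exceeded WT1-566 in 36 of 37 members, by a median of 5.12 on the log2 CPM scale, but exceeded WT5-566 by a median of 0.39, also in 36 members. Within number 568, KO2-568 exceeded WT1-568 in 35 members, by a median of 3.52, and was below WT8-568 in 30 members, with a median difference of -0.46. Within number 588, KO1-588 was below WT3-588 in 28 members, with a median difference of -0.57. The direction was thus the same against both wild-type arches of number 566, differed between those of number 568, and rests on a single wild-type arch for number 588.

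When WT1-566 and WT1-568 were left out of limma-voom, the median log2 fold change of the members was 0.01, with 20 positive and 17 negative values. Under this fit 0 members were called higher and 0 lower, against 0.131% and 0.62% of the tested genes. At an unadjusted p below 0.05, 3 members were higher, *Phox2a* (3.47), *Neurog2* (1.49) and *Eya2* (0.41), and 1 was lower, *Six4* (-0.21, FDR 0.169), against 7.53% and 10.6% of tested genes. The other 33 members had intervals that included 0.

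To compare the genotypes at a like content of neuronal RNA, the mean log2 CPM of 28 other sensory neuron genes, none of them a member, was added to limma-voom as a covariate, a choice made after the data were seen. It was low in WT1-566 and WT1-568, at -1.66 and -1.88 relative to the mean of all arches, and between -0.18 and 1.15 in the other 8. With the covariate, 10 members had positive and 27 negative log2 fold changes, with a median of -0.24. No member was higher, and *Elavl4* was lower by this fit, by -0.54 with a 95% confidence interval from -0.74 to -0.33 (FDR 0.00952), while 0.35% of tested genes were called higher and 0.742% lower. At an unadjusted p below 0.05, 3 members were higher, *Phox2a* (2.71, FDR 0.0541), *Neurog2* (1.49, FDR 0.111) and *Eya2* (0.33, FDR 0.0642), and 14 were lower, together 17 of 37 against 19.8% of tested genes in either direction. Of the 14561 tested genes, 1524 were higher and 1356 lower at that p. The covariate and the members come from the same libraries, so this fit shows each member relative to other neuronal genes and not its level per arch.

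With the covariate and without WT1-566 and WT1-568, *Elavl4* (-0.54, FDR 0.00555) and *Six4* (-0.25, FDR 0.00645) were lower and 0 members were higher, against 1.02% and 0.544% of tested genes. At an unadjusted p below 0.05, 18 members were lower and 3 higher in this fit, against 12.3% and 9.88% of tested genes. *Phox2a* was among them, with a log2 fold change of 3.32 (FDR 0.0106).

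**Figure D3:**
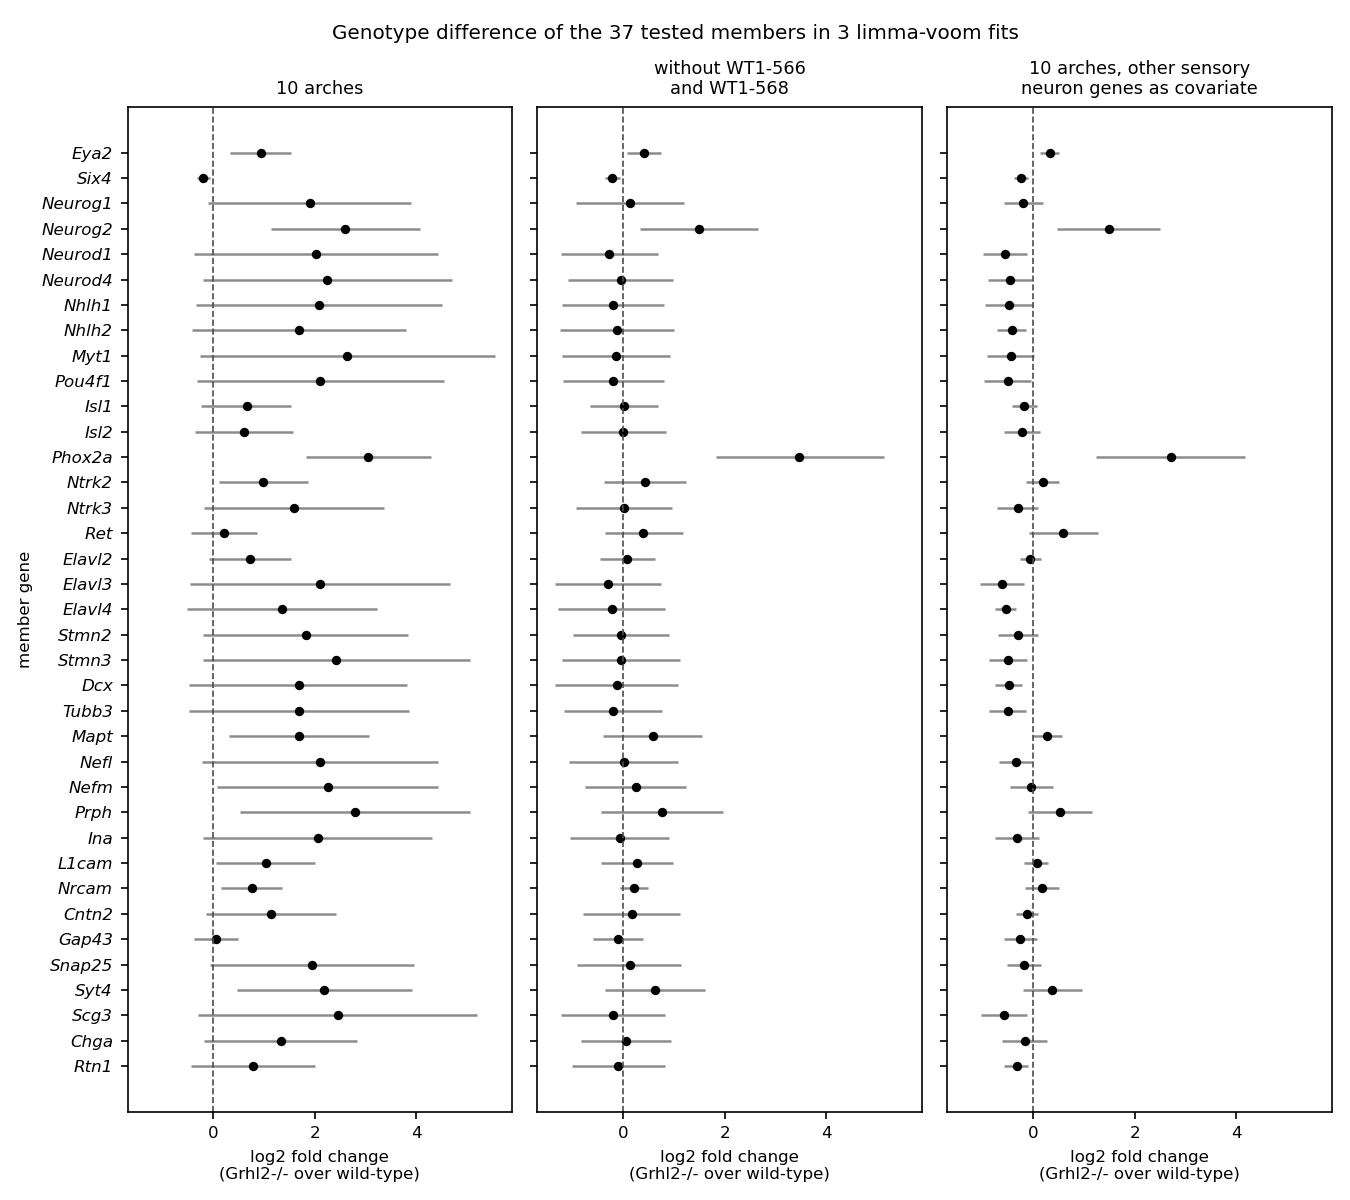
Log2 fold change (horizontal axis, points) with its 95% confidence interval (lines) for the 37 tested members in limma-voom with all 10 arches, without WT1-566 and WT1-568, and with other sensory neuron genes as a covariate. The median moves from 1.69 to 0.01 and -0.24, while *Phox2a* and *Neurog2* remain on the right in all 3 fits and *Six4* on the left, and the fitted value of *Phox2a* rests on wild-type arches under the floor.

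The proportions of the members to each other were also compared, as levels per kb of exon relative to *Tubb3* in the same arch. *Elavl4* was at 8.47% to 9.30% of *Tubb3* in WT5-566, WT8-568 and WT3-588 and at 8.07% to 9.84% in the *Grhl2*-/- arches, and *Scg3* at 2.67% to 3.05% and 2.63% to 3.16%. These 2 were among the steadiest, with highest-to-lowest ratios of 1.22 and 1.2 over the 8 arches, whereas the ratio was 13.6 for *Neurog2*, 7.77 for *Ret*, 3.47 for *Nrcam*, 3.4 for *Six4*, 3.31 for *Prph*, 3.27 for *Mapt* and 2.86 for *Eya2*. In WT1-566 and WT1-568, where *Tubb3* was low, *Six4* was at 321% and 560% of *Tubb3* and *Gap43* at 759% and 1250%, against 37.2% to 72.3% for *Gap43* in the other 8 arches. *Prph* was at 0.349%, 0.732%, 0.508%, 0.814% and 0.977% in wild-type and 2.13%, 2.42%, 1.37%, 1.25% and 1.36% in *Grhl2*-/- PA1, where the values of WT1-566 and WT1-568 rest on 1 count each. *Nefm*, the medium neurofilament, was at 7.23%, 8.89%, 6.50%, 10.1% and 8.10% in wild-type and at 10.1%, 13.2%, 11.4%, 12.5% and 14.8% in *Grhl2*-/- PA1.

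Markers of other cell types of the region were summed in the same arches. All 10 genes of ganglion glia and Schwann cell precursors, such as *Sox10*, had WT1-566 and WT1-568 below the other 3 wild-type arches. The list summed to between 55.6 and 252 CPM in wild-type and between 105 and 308 CPM in *Grhl2*-/- PA1, and 0 of its genes were called. *Sox10* had 88 and 92 counts in WT1-566 and WT1-568, 873 to 1390 in the other wild-type libraries and 698 to 1761 in *Grhl2*-/- PA1. Of 28 tested other sensory neuron genes, 18 had the same order, 0 were called higher and 1, *Eya1*, a placodal gene of the same family as *Eya2*, was lower (-0.32, limma-voom FDR 0.00113). The part of glial content in the members' differences was not tested.

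Neuronal genes of other origin were mostly near the floor in wild-type PA1. The motor neuron markers *Mnx1* and *Chat* had at most 1 count and *Slc18a3* at most 5 in any arch, and the 4 tested motor neuron genes summed to 2.13 to 3.97 CPM in wild-type and 2.66 to 11.1 CPM in *Grhl2*-/- PA1, with 0 calls. *Lhx3* and *Lhx4*, LIM homeodomain factors of motor neurons, had at most 2 and 3 counts in wild-type PA1. In *Grhl2*-/- PA1, *Lhx3* had 1, 111, 39, 2 and 3 counts (log2 fold change 3.16, limma-voom FDR 0.218), and *Lhx4* had 7, 37, 28, 5 and 6 counts, all above the wild-type arches (2.74, FDR 0.0470). Of 17 neural tube progenitor genes, 10 were tested and summed to 9.52 to 16.0 CPM in wild-type and 15.5 to 51.7 CPM in *Grhl2*-/- PA1. *Fgf15* (3.05, limma-voom FDR 0.00814) and *Pax8* (5.41, FDR 0.00971) were higher, and *Olig2* was at most at 1 count. *Pax8* had at most 1 count in wild-type and 13 to 66 counts in *Grhl2*-/- PA1. It met the filter through *Grhl2*-/- arches only, and its fitted value depends on the prior count. *Pax6*, a paired box factor of the neural tube and eye, had 16 to 185 counts in wild-type and 81, 241, 1046, 120 and 307 counts in *Grhl2*-/- PA1 (2.33, FDR 0.129). KO1-588 had the highest sum of the neural tube list, 51.7 CPM, of which *Pax6* alone gave 37.3. Not all genes of this list were higher. *Gbx2*, the most abundant of those tested in the wild-type arches, fell from a mean of 7.37 CPM there to 4.02 CPM without *Grhl2*. Its log2 fold change was -0.85 (limma-voom FDR 0.032, not called), and that of *En2* was -0.09 (FDR 0.853). The median deviations of the neural tube genes did not follow the members, at -0.81 in WT1-566 but 0.15 in WT1-568. *Dbh*, an enzyme of noradrenergic neurons, had at most 1 count in wild-type and 0 to 19 in *Grhl2*-/- PA1 (limma-voom FDR 0.210). The 7 autonomic neuron genes summed to 32.4 to 42.9 and 36.5 to 47.8 CPM, with 0 calls. Their part in the *Phox2a* result was not tested.

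In WT1-566 and WT1-568, the medians of arch mesenchyme and epithelium were not low as those of the members were. Arch mesenchyme genes deviated by a median of 0.21 in WT1-566 and 0.15 in WT1-568. In the *Grhl2*-/- arches their medians had the members' order, but on a small scale, at -0.03 in KO2-568 and -0.13 in KO1-588 against 0.02 to 0.10 in the other 3. They summed to 1300 to 1560 CPM in *Grhl2*-/- PA1, with *Lhx6*, *Lhx8* and *Msx1* lower among 14 tested. Epithelial genes deviated by 0.02 and 0.10 in the same arches, and 5 of 8 were lower, with sums of 312 to 420 CPM in wild-type and 162 to 248 CPM in *Grhl2*-/- PA1. In the *Grhl2*-/- arches, the medians of epithelial and jaw muscle genes ran against the members, at of 0.45 and 0.40 in KO2-568, 0.48 and 0.64 in KO1-588, and -0.36 and -0.55 in KO2-566. Single genes differed from these medians. *Msc*, a bHLH factor of jaw muscle, had the members' order in both genotypes, at 3.95, 8.11, 1.62, 5.17 and 5.26 CPM and 7.44, 4.20, 4.39, 8.15 and 7.52 CPM, and *Myod1*, a myogenic bHLH factor, was highest of the *Grhl2*-/- arches in KO2-566 and lowest in KO1-588, at 1.28 and 0.214 CPM. The jaw muscle, endothelial and erythroid lists, with 6 genes each, had 0 calls, and so had the 4 *Hox* genes. Of 5 tested lens and otic genes, which summed to 0.324 to 0.593 CPM in wild-type and 0.849 to 3.32 CPM in *Grhl2*-/- PA1, *Cryge* was higher (FDR 0.00681), and *Oc90* was at 0 counts in all arches. *Cryge* had at most 1 count in wild-type and 4 to 30 counts in *Grhl2*-/- PA1, and met the filter through *Grhl2*-/- arches only.

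**Figure D4:**
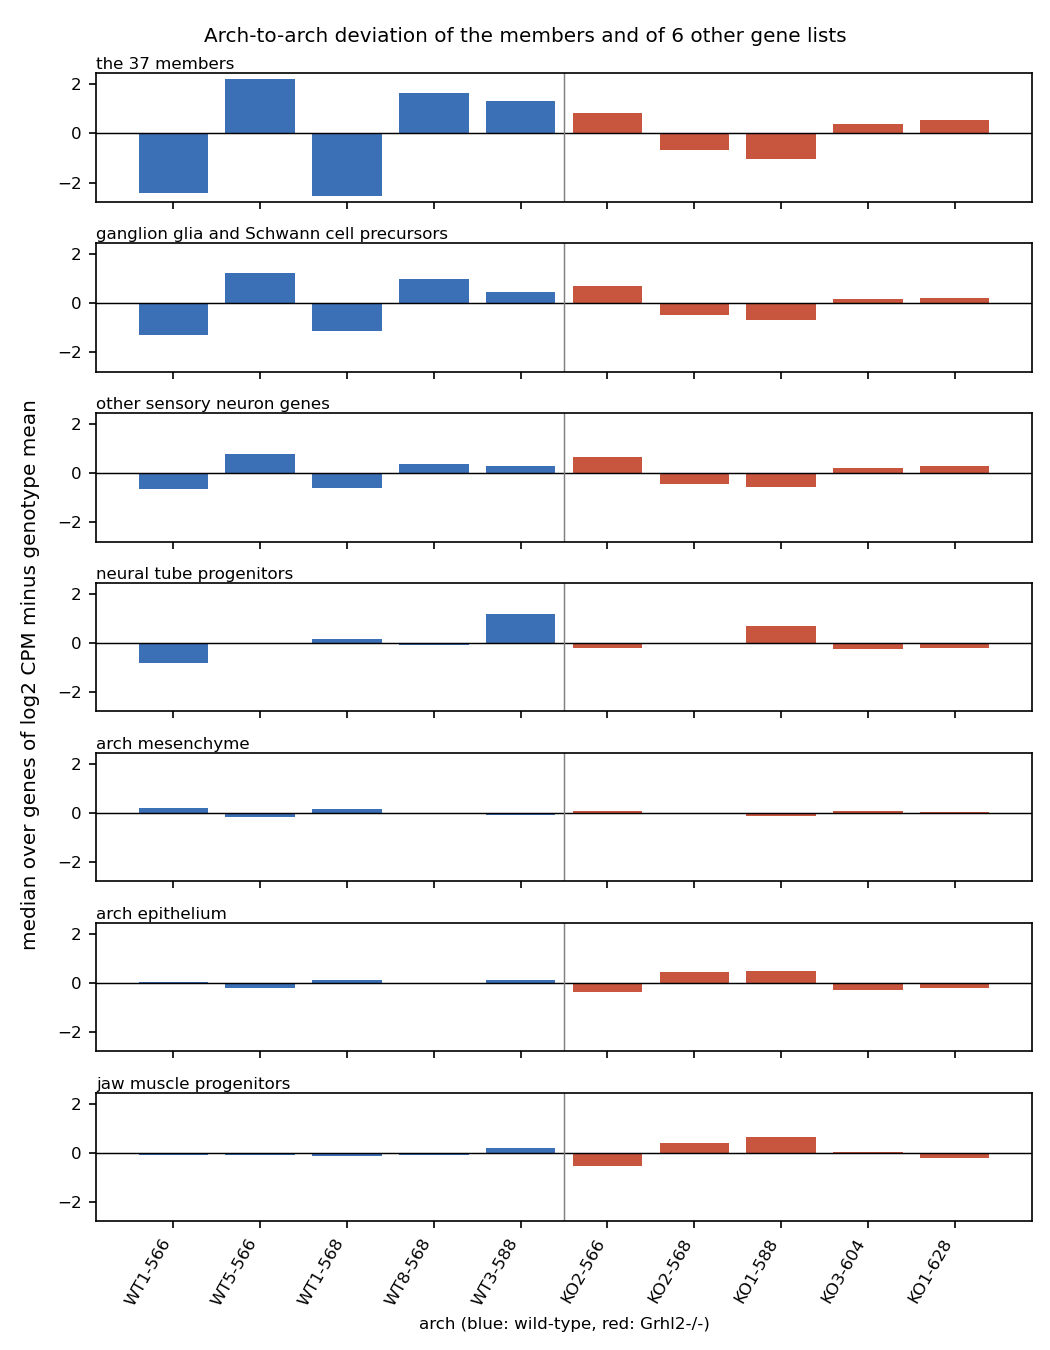
Median over genes of log2 CPM minus the genotype mean (vertical axis, bars) in each arch for the 37 tested members and 6 other lists, with wild-type arches in blue and *Grhl2*-/- arches in red. Ganglion glia and other sensory neuron genes fall and rise with the members, from -1.3 in WT1-566 to 1.21 in WT5-566 for glia, while mesenchyme stays between -0.17 and 0.21.

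Outside the members, the 10 genes with a mean of at least 5 CPM whose deviations followed the members most closely were *Nacad*, *Akap6*, *Sox10*, *Thsd7b*, *Stmn4*, *Rundc3a*, *Syp*, *Brsk2*, *Ppp1r1c* and *Syt13*. Pearson's r with the members' mean was 0.995 to 0.999 over the 10 arches and 0.979 to 0.999 over 8 arches without WT1-566 and WT1-568. *Stmn4* and *Syp* were on the list of other sensory neuron genes and *Sox10* on that of glia. *Nacad* was closest, at 0.395 to 14.8 CPM in wild-type and 3.96 to 17.8 CPM in *Grhl2*-/- PA1. None of the 10 passed the test between genotypes, with limma-voom FDR between 0.204 and 0.364.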

How the data were processed

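Single-end reads of 50 bp were aligned by the authors with STAR (GRCm38), and the raw counts that featureCounts gave for 22114 protein-coding genes in 10 arches were deposited. The versions of both tools are not given in the sources used here. The labels do not say what the number in a title stands for. The deposited table of the authors' own comparison (fold changes and p-values) was not used. The test used limma 3.58.1 (voom, lmFit, eBayes) on counts scaled by TMM from edgeR 4.0.16, run in R 4.3.3, and compared the genotypes without a covariate in the 14561 genes that reached 10 counts in any arch. P-values were adjusted by the Benjamini-Hochberg method (FDR) and called below 0.01. Log2 CPM used a prior count of 0.5, and intervals are at 95%. Fits were checked on simulated counts.

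The members, their roles and the other lists were chosen with earlier results of these data known. Named members are those called, the 6 with the smallest FDR, the most abundant of each role and the 3 with the largest SD at 5 CPM or more. *Neurog1*, *Ret*, *Prph* and other members outside this rule, with the genes of the other lists, were named to complete each group. Alternatives were edgeR, DESeq2 1.42.0 with independent filtering off, other scalings, filters and thresholds, voomWithQualityWeights, a replicate block and leaving out arches. Exons, strands and lengths are from GENCODE mouse release 21. The kit marks strand, and the methods do not state the strand setting of the counts, although the deposited table is named as counted in reverse, and reads of *Phox2a* and *Inppl1* may not be told apart if that setting was not used. Exons of *Neurod1*, *Ina*, *Syt4*, *Phox2a*, *Nefl* and *Nefm* overlap a gene on the opposite strand. Of the member promoters, the orientation was checked against transcripts. Intervals and the floor of 3 counts cover counting error or the spread between embryos only. Single values of some genes of the other lists are not reported here.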

Additional observations from a re-analysis of the deposited data

How the results depend on the processing

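Of 338 refits of the 17 named members, without the covariate fits, 315 kept their direction and side of the threshold. All named members but *Phox2a* were uncalled with all arches, so for most of them keeping that side was nearly given. *Phox2a* was above the threshold in 11 refits. Direction turned without WT1-566 and WT1-568, a choice made after seeing the data, in *Neurod1* (-0.27), *Elavl4* (-0.22), *Tubb3* (-0.20), *Gap43* (-0.09), *Myt1* (-0.14), *Scg3* (-0.20) and *Stmn3* (-0.04), none of which was called in either fit, and *Gap43* (-0.08 to 0.20 when 1 arch was left out) also turned without WT1-568 (-0.01), KO2-566 (-0.08) or KO1-628 (-0.01). The number of members called higher, 1 with all arches, was 2 at FDR below 0.05 and 2 with DESeq2, and 0 with filterByExpr (which dropped *Phox2a*), with the replicate block, without the 2 wild-type arches, and in 9 of the 10 fits without 1 arch (0 to 1). Members called lower were 0 in all these fits, and with the covariate 1, or 2 without the 2 wild-type arches. The median log2 fold change was 0.82 with edgeR, 0.82 with DESeq2, 0.01 without the 2 wild-type arches, and 0.97 (without WT1-568) to 2.3 (without WT5-566) when 1 arch was left out. Members with all *Grhl2*-/- arches above the wild-type arches were 1 to 3 when 1 arch was left out and 2 with library size alone, and those below were 0 to 1.

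With the label number as a replicate block, the median log2 fold change was 1.31 and *Phox2a* was no longer called (2.77, FDR 0.0317). Deviations of the 5 same-numbered pairs correlated between -0.237 and 0.42, with a mean r of 0.105 against -0.0253 for pairs of different numbers. So few pairs cannot show whether arches of 1 number are related, and the main test did not pair them. No other call of a member changed with the block.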
